A study of Homo sapiens with 12 samples.

Results

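*RAB7B* and 9 other RAB genes of endosomes, lysosomes, phagosomes and secretory granules were followed through 12 RNA-seq libraries of HL-60/S4, an established human promyelocytic leukemia cell line. The 10 genes (*RAB7A*, *RAB7B*, *RAB9A*, *RAB5A*, *RAB11A*, *RAB31*, *RAB20*, *RAB32*, *RAB27A* and *RAB37*) were taken by symbol from the 58288 genes of the deposited count table. The set was put together because *RAB7B* changed in opposite directions in the 2 cell types, so the responses of these genes to TNF-α and their levels between groups are given as a description, without p-values. All 10 genes passed the filter on low counts in every comparison.

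The libraries form 4 groups of 3. Promyelocytes are undifferentiated HL-60/S4 cells, and granulocytes are the same cells after 4 days in 1 µM all-trans retinoic acid (ATRA). In each cell type, 1 group received the cytokine TNF-α at 16 ng/mL for 2 h and the other received water as vehicle, all at passage 8 and in medium supplemented with calcium. Replicates were flasks of a single seed lot of 1 cell line, so the spread between them is that of parallel cultures. TNF-α was given to promyelocytes and to granulocytes in separate experiments, so that cell type and experiment cannot be told apart, and levels are set side by side between cell types without a test. In bulk RNA, fewer cells with a transcript and less transcript per cell cannot be told apart either.

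RAB proteins are small GTPases that mark the membranes of the cell. In the GTP-bound form, which guanine nucleotide exchange factors (GEFs) produce, they recruit effectors that move, tether or fuse vesicles, and GTPase-activating proteins (GAPs) end this state. In myeloid cells the RABs of endosomes and granules act in the uptake and killing of microbes, in the traffic of Toll-like receptors and in the release of granule contents. RAB7B is a relative of the late endosomal RAB7A and is known for its work in transport between late endosomes and the Golgi and in the turnover of Toll-like receptors in macrophages.

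Library totals ran from 22829189 to 31895061 counted read pairs with a median of 28233190, and 3 counts, the floor used here, stood at 0.0941 to 0.131 CPM, the count scaled to a common library size, in these libraries. All 8 genes of a list of known TNF-α targets rose in each cell type, by 1.91 to 6.22 (log2) in promyelocytes and by 2.41 to 8.31 in granulocytes. Of the markers, 5 promyelocyte genes summed to 7321 to 8147 CPM in vehicle promyelocytes and 2134 to 2346 CPM in vehicle granulocytes, with *ELANE*, which encodes neutrophil elastase, at only 1.79 CPM in vehicle promyelocytes. The 6 markers of ATRA-treated granulocytes summed to 155 to 164 CPM and 4697 to 4959 CPM, respectively. Of 5 monocyte and macrophage markers, whose sum was 4.89 to 5.59 CPM in vehicle promyelocytes and 120 to 124 CPM in vehicle granulocytes, *MARCO* was at 0 in every group and *MERTK* was highest, at a mean of 72.3 CPM in vehicle granulocytes.

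*RAB7B* (ENSG00000276600.4) lies on the minus strand of chromosome 1 at 205976740-206003461 (hg38). RefSeq gives it 2 start sites, and the windows of 300 bases around them (250 before and 50 after the start, GRCh38.p14) are printed with that of its relative *RAB7A*, because *RAB7B* changed with TNF-α in both cell types and *RAB7A* did not pass the threshold in either. Capitals mark matches to searched motifs, which are TATAAA at 179 to 174 bases and GAGGAA, a core bound by PU.1 and other ETS factors, at 32 to 27 bases before the first *RAB7B* start.

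RAB7B first start, chr1:206003346-206003645, minus strand: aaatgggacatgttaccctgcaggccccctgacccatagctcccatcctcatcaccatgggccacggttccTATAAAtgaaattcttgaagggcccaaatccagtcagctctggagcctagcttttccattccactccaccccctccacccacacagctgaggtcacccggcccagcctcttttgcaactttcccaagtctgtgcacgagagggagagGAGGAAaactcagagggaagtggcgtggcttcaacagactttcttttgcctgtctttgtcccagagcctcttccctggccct
RAB7B second start, chr1:205994408-205994707, minus strand: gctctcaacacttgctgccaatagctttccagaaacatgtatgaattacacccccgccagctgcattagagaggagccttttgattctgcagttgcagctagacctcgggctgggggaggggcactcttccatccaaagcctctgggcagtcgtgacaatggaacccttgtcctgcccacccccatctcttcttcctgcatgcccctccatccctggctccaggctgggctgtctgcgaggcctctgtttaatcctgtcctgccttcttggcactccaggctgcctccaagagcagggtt
RAB7A start, chr3:128725933-128726232, plus strand: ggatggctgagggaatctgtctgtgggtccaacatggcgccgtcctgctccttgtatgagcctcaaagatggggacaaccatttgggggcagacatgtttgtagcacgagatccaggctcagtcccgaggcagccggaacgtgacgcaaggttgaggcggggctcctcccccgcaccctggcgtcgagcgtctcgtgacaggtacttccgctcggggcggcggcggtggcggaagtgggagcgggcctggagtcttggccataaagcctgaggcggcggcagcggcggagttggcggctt

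Both *RAB7B* windows were poor in CG, with 4 CG each at a GC content of 55.0% and 57.0%, whereas the *RAB7A* window held 25 CG at 65.0% GC. The medians over all RefSeq promoters were 14 CG and 58.7% GC. The motifs searched, on both strands, were the NF-κB decamer, AP-1 (TGANTCA), PU.1/ETS (GAGGAA), ISRE, the TATA box (TATAAA) and CRE (TGACGTCA). They were present in 11.3%, 7.72%, 27.9%, 3.57%, 11.6% and 1.84% of the 34943 promoters at distinct positions, in that order. Neither *RAB7B* window nor that of *RAB7A* held the NF-κB decamer, which says only that these letters are absent from these windows. The decamer was present at 129 to 120 bases before the start of *RAB31* and at 58 to 49 bases before that of *RAB32*. Of the 10 genes, 8 were found in the promoter table, and *RAB20* and *RAB37* were not among them.

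*RAB7B* was 11.4 times lower in vehicle granulocytes than in vehicle promyelocytes, and 2 h of TNF-α brought it from 6.20 to 68.4 CPM in granulocytes, beside 70.9 CPM in vehicle promyelocytes. Its normalized counts were 78.9, 69.7 and 64.2 CPM in the promyelocyte vehicle libraries and 53.7, 63.4 and 60.5 CPM with TNF-α. In granulocytes they were 5.97, 5.89 and 6.74 CPM with vehicle and 73.8, 68.0 and 63.5 CPM with TNF-α. All 3 TNF-α libraries of promyelocytes lay under the lowest vehicle library, TNF-α replicate 2 by less than 1 CPM and TNF-α replicate 1 farthest, while in granulocytes every TNF-α library lay far above every vehicle library. Such a separation was seen for 6 of the 10 genes in promyelocytes, against 30.9% of all genes tested, and for 9 of 10 in granulocytes, against 55.1%. The group means were 70.9 ± 7.45, 59.2 ± 4.99, 6.20 ± 0.470 and 68.4 ± 5.21 CPM (SD, n = 3 each), in the same order.

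The log2 fold change of *RAB7B* was -0.24 (SE 0.0740) in promyelocytes and 3.45 (SE 0.0776) in granulocytes, that is 0.849-fold and 10.9-fold. The granulocyte increase rested on 155, 178 and 201 counts with vehicle and 1633, 1898 and 1403 counts with TNF-α, and it stayed between 3.40 and 3.51 when any 1 library was left out. The promyelocyte decrease passed the threshold with all 6 libraries, but in only 2 of the 6 fits that left out 1 library, where it lay between -0.29 and -0.16. It did not pass without vehicle replicate 1 (-0.16), vehicle replicate 2 (-0.25), TNF-α replicate 1 (-0.17) or TNF-α replicate 3 (-0.25), nor with the replicate number as a block (-0.23). Markers moved with TNF-α in the same promyelocyte libraries, where the sum of the 5 promyelocyte genes was 6065 to 6966 CPM with TNF-α, against 7321 to 8147 CPM with vehicle, and that of the 6 granulocyte genes was 262 to 278 CPM, against 155 to 164 CPM. Most of the promyelocyte sum was *MPO*, with means of 5376 CPM with TNF-α and 6427 CPM with vehicle, and 3 of the 5 genes fell. Most of the granulocyte sum was *CYBB*, with means of 216 and 113 CPM, and 2 of the 6 genes rose and 1 fell. In granulocytes with TNF-α the 6 granulocyte genes summed to 5220 to 5560 CPM, against 4697 to 4959 CPM with vehicle (2 rose and 3 fell). The 5 monocyte and macrophage markers summed to 94.8 to 111 CPM there, against 120 to 124 CPM with vehicle. Only 2 of these 5 were tested in granulocytes, and 1 fell. *MERTK*, the highest of them, had means of 71.4 CPM with TNF-α and 72.3 CPM with vehicle. The part of these markers in the changes of *RAB7B* and the other RAB genes was not tested.

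**Figure D1:**
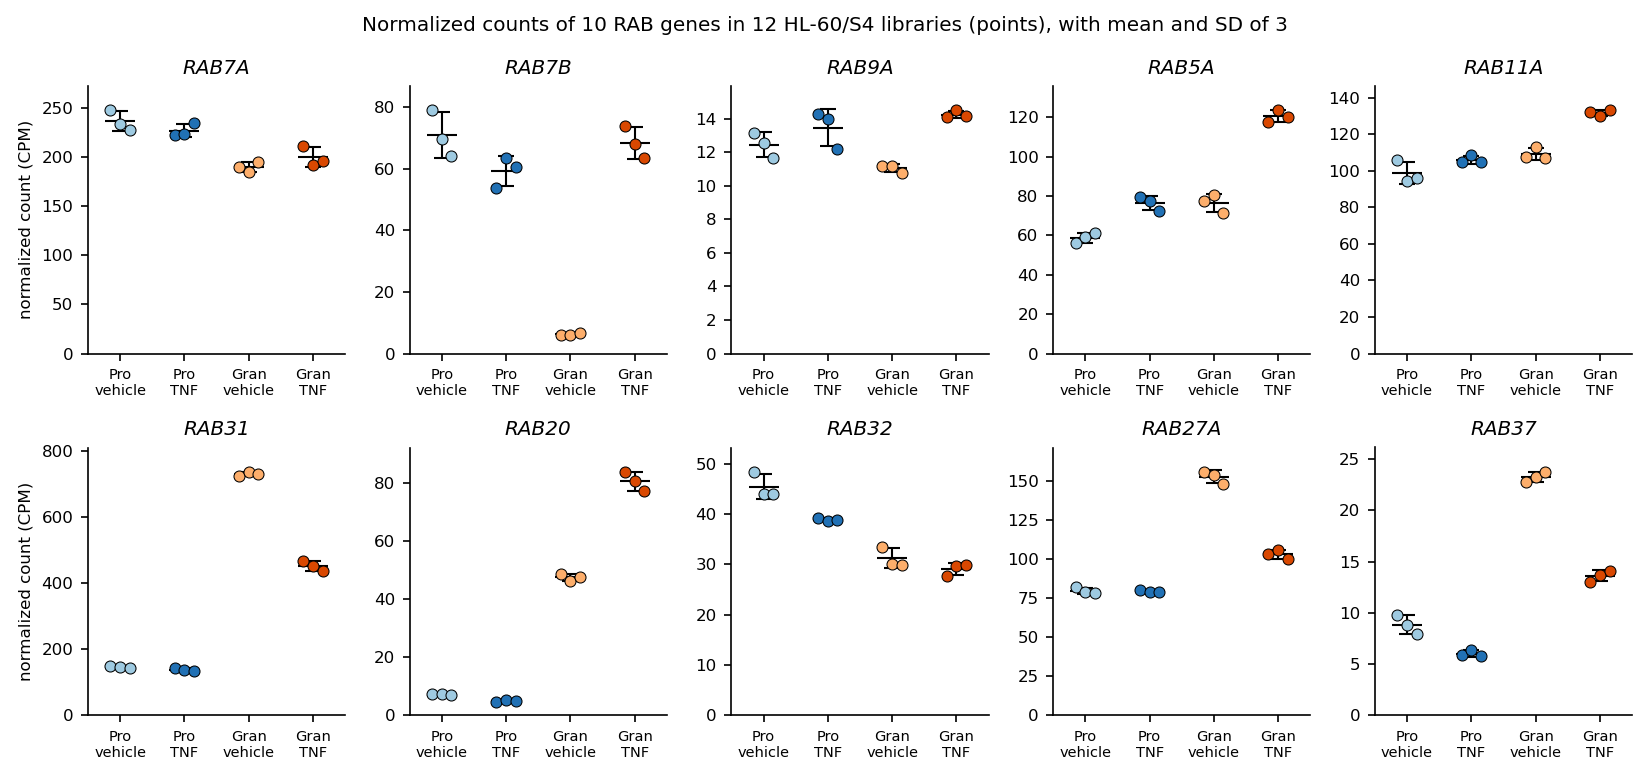
Normalized counts (CPM, linear axes from 0) of the 10 RAB genes in each of the 12 libraries (points), with the mean and SD of 3 libraries per group. *RAB7B* stood at 5.89 to 6.74 CPM in vehicle granulocytes and at 53.7 CPM or more in every other library, whereas *RAB7A* stayed between 185 and 248 CPM throughout.

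The distance from the paralog *RAB7A* changed accordingly. *RAB7A*, which drives the maturation of late endosomes and their fusion with lysosomes, was at 237 ± 10.1 and 227 ± 6.36 CPM in vehicle and TNF-α promyelocytes and at 190 ± 5.03 and 200 ± 10.2 CPM in granulocytes. Its libraries overlapped between treatments in both cell types, with log2 fold changes of -0.03 (SE 0.0553) and 0.06 (SE 0.0490), neither past the threshold. Per length of exon, *RAB7B* reached 22.1 ± 1.37% of the *RAB7A* level in vehicle promyelocytes and 19.2 ± 1.57% with TNF-α, with overlapping libraries. In granulocytes this share was 2.40 ± 0.126% with vehicle and 25.2 ± 1.20% with TNF-α. The ratio is taken within each library, so the scaling of libraries does not enter it.

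**Figure D2:**
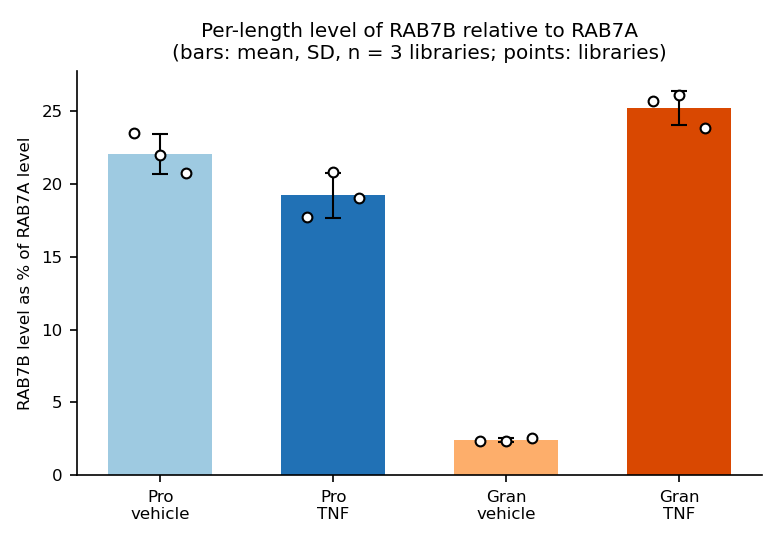
Level of *RAB7B* per length of exon, as a percentage of that of *RAB7A* in the same library, for the 4 groups (bars are means of 3 libraries with SD, points are libraries). Vehicle granulocytes stood at 2.40%, and the other groups at 19.2% to 25.2%.

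The response of *RAB7B* in granulocytes exceeded that in promyelocytes by 3.72 (log2, SE 0.120), and by 3.64 to 3.79 with any 1 library left out. Among 15393 genes tested in both cell types, 184 (1.20%) passed the threshold in opposite directions, and 113 (0.734%) did so as *RAB7B* did, down in promyelocytes and up in granulocytes. Ranked by the absolute difference between the fold changes of the separate fits, *RAB7B* was the third of the 184, after *CD70*, which went the other way, and *GPR157*. *RAB20* took place 32. The rank repeats the choice of the gene and is no support for it.

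In promyelocytes, 5 of the 10 genes passed the threshold, 1 increased and 4 decreased, against 14.8% of all genes tested (8.15% increased and 6.65% decreased). In granulocytes, 8 of 10 passed, 5 increased and 3 decreased, against 49.2% of all genes (24.4% and 24.8%). The responses differed for 5 of 10, against 24.0% of all genes, with 3 larger and 2 smaller in granulocytes (14.1% and 9.88% of all genes). Since the set was chosen from these comparisons, nothing is read from these shares. The median log2 fold change of the 10 genes was -0.05 in promyelocytes and 0.16 in granulocytes, beside -0.01 and -0.00 over all genes tested.

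**Figure D3:**
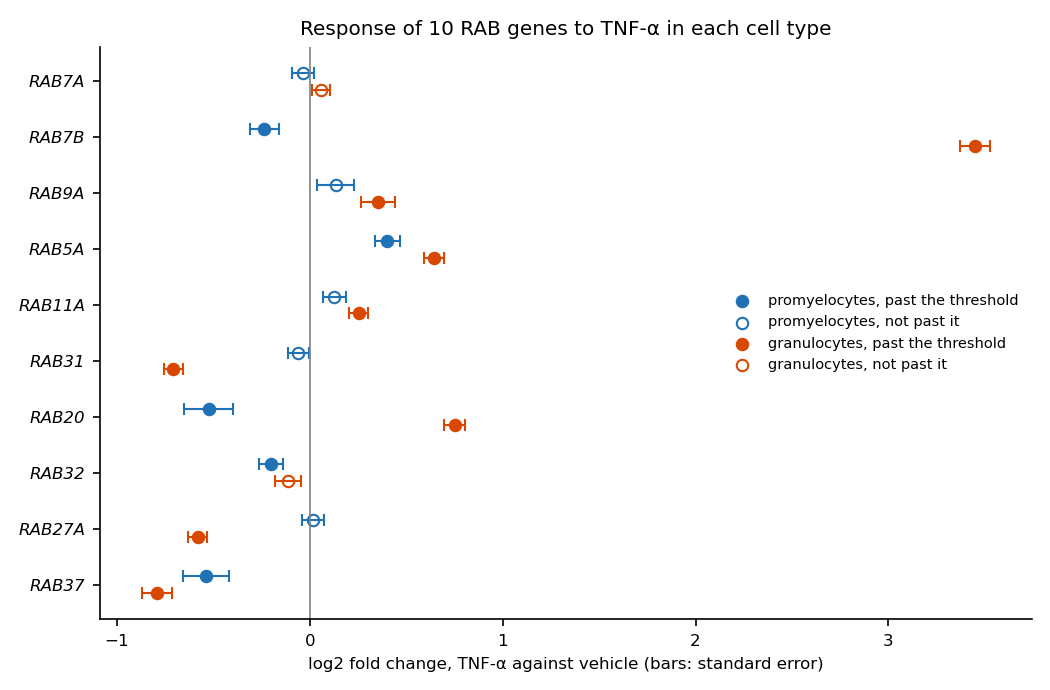
Log2 fold change (TNF-α against vehicle) of the 10 RAB genes in promyelocytes (blue) and granulocytes (orange), with standard errors as bars and filled points for changes past the threshold of 0.05. Only *RAB7B* and *RAB20* passed on opposite sides of 0, with 3.45 and 0.75 in granulocytes.

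The third gene of the late endosome, *RAB9A*, whose product recycles mannose 6-phosphate receptors from late endosomes to the Golgi, was at 13.1, 12.6 and 11.7 CPM with vehicle and 14.3, 13.97 and 12.2 CPM with TNF-α in promyelocytes. In granulocytes it was at 11.2, 11.2 and 10.8 CPM and 14.1, 14.5 and 14.2 CPM. The promyelocyte groups overlapped, with a log2 fold change of 0.13 (SE 0.0970) that did not pass, and in granulocytes *RAB9A* rose by 0.35 (SE 0.0884).

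Among the genes of early and recycling endosomes, *RAB5A* rose in both cell types and *RAB31* fell in granulocytes. *RAB5A* encodes the GTPase that governs the fusion of early endosomes. It was at 56.1, 59.1 and 61.1 CPM with vehicle and 79.3, 77.5 and 72.5 CPM with TNF-α in promyelocytes, and at 77.3, 80.3 and 71.3 CPM and 117, 123 and 120 CPM in granulocytes. No TNF-α library overlapped a vehicle library of its cell type, and the log2 fold changes were 0.40 (SE 0.0635) and 0.64 (SE 0.0527). The difference between the 2 responses, 0.28 (SE 0.0814), passed, but not without granulocyte vehicle replicate 3 (0.23) or without the expression filter (0.20).

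*RAB11A*, which returns cargo from recycling endosomes to the plasma membrane, was at 106, 94.3 and 96.1 CPM in vehicle promyelocytes and 105, 109 and 105 CPM with TNF-α. In granulocytes it was at 108, 113 and 107 CPM with vehicle and 132, 130 and 133 CPM with TNF-α. The promyelocyte groups overlapped and did not pass (0.13, SE 0.0588), whereas all granulocyte libraries with TNF-α were above those with vehicle and the gene rose by 0.25 (SE 0.0490).

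*RAB31*, a relative of RAB5 that acts between the Golgi, endosomes and phagosomes, was per length the most abundant of the 10 genes in vehicle granulocytes. It stood at 150, 145 and 144 CPM in vehicle promyelocytes and 142, 137 and 134 CPM with TNF-α, a log2 fold change of -0.06 (SE 0.0552) that did not pass although the groups did not overlap. In granulocytes it stood at 725, 737 and 731 CPM with vehicle and 466, 452 and 437 CPM with TNF-α, and it fell by 0.71 on the log2 scale (SE 0.0489). Even after this decrease the granulocyte level was 3.28 times the promyelocyte level with TNF-α, against 5.01 times with vehicle. The difference between the responses was -0.61 (SE 0.0698) and passed.

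*RAB20* was the other gene of the set that passed in opposite directions. RAB20 acts on phagosomes and early endosomes and on their acidification. Its normalized counts were 7.19, 7.21 and 6.73 CPM in vehicle promyelocytes and 4.52, 5.003 and 4.92 CPM with TNF-α. In granulocytes they were 48.6, 46.1 and 47.6 CPM with vehicle and 83.8, 80.5 and 77.3 CPM with TNF-α. Neither pair of groups overlapped, and the log2 fold changes were -0.52 (SE 0.127) and 0.75 (SE 0.0540), with a difference of 1.31 (SE 0.109). Unlike *RAB7B*, *RAB20* was 6.73 times higher in vehicle granulocytes than in vehicle promyelocytes, and with TNF-α it stood at 80.5 ± 3.25 CPM in granulocytes and 4.81 ± 0.260 CPM in promyelocytes, beside 7.04 ± 0.270 CPM in vehicle promyelocytes.

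*RAB32*, which acts in the biogenesis of lysosome-related organelles and in the defence against intracellular bacteria, was at 48.5, 44.0 and 44.1 CPM in vehicle promyelocytes and at 39.2, 38.7 and 38.8 CPM with TNF-α. In granulocytes it was at 33.5, 30.2 and 29.98 CPM with vehicle and 27.6, 29.7 and 29.9 CPM with TNF-α. The promyelocyte decrease (log2 -0.20, SE 0.0632) passed with all 6 libraries and with none of the 6 sets of 5 (-0.22 to -0.17), and DESeq2 did not call it. The granulocyte change of -0.11 (SE 0.0668) did not pass.

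Both genes of secretory granules fell in granulocytes. *RAB27A*, which docks granules at the plasma membrane, was at 81.8, 78.7 and 78.1 CPM in vehicle promyelocytes and at 80.0, 78.7 and 78.5 CPM with TNF-α, with overlapping groups and a log2 fold change of 0.02 (SE 0.0567). In granulocytes it was at 156, 154 and 148 CPM with vehicle and 103, 106 and 100 CPM with TNF-α. It fell by 0.58 (SE 0.0490) there, and the difference between the responses, -0.56 (SE 0.0711), passed. Its exons share 183 bases with *PIGBOS1* on the same strand, which is 3.26% of their length, and 154 with *PIGB* on the opposite strand. Fewer bases of *RAB5A* (103) and *RAB37* (17) overlap exons of *PP2D1* and *SLC9A3R1-AS1*, respectively, both on the opposite strand, and the counting used strand.

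*RAB37*, a RAB of secretory granules, was at 9.77, 8.83 and 7.91 CPM in vehicle promyelocytes and at 5.83, 6.40 and 5.74 CPM with TNF-α. In granulocytes it was at 22.8, 23.3 and 23.8 CPM with vehicle and 13.02, 13.7 and 14.1 CPM with TNF-α. It fell in both cell types without overlap between groups, by 0.54 (SE 0.121) and 0.79 (SE 0.0779) on the log2 scale. The difference between these responses, -0.21 (SE 0.133), did not pass.

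Levels per length of exon, in CPM per kilobase (RPKM), put the 10 genes in a different order in each group. In vehicle promyelocytes *RAB7A* led with 87.1 ± 3.73, followed by *RAB32* with 37.4 ± 2.09 and *RAB31* with 26.1 ± 0.5998. *RAB7B* took place 4 with 19.2 ± 2.02, overlapping *RAB11A* with 17.4 ± 1.08, and *RAB37* was last with 1.74 ± 0.184. In promyelocytes with TNF-α *RAB7B* took place 6, with 16.1 ± 1.35, and no 2 neighbours overlapped.

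In vehicle granulocytes *RAB31* led with 131 ± 1.05 RPKM, ahead of *RAB7A* with 69.9 ± 1.85 and *RAB20* with 31.2 ± 0.838. *RAB27A* (27.2 ± 0.724) overlapped *RAB32* (25.6 ± 1.62), and *RAB5A* (20.2 ± 1.20) overlapped *RAB11A* (19.2 ± 0.595). *RAB7B* was last, with 1.68 ± 0.128. With TNF-α the order began with *RAB31* (80.9 ± 2.59), *RAB7A* (73.6 ± 3.76) and *RAB20* (53.1 ± 2.14), and *RAB7B* (18.6 ± 1.41) had moved to place 7, overlapping *RAB27A* (18.4 ± 0.497).

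The genes whose pattern over the 12 libraries was most like that of *RAB7B* were *CD44*, *MFSD2A*, *TRIP10*, *DUSP2* and *EPOP*. Likeness was the root mean square difference of log2 CPM after each gene was centred on its own mean, which was 0.43, 0.44, 0.47, 0.48 and 0.50 for these genes and 1.54 at the median of 17931 genes. *CD44*, the hyaluronan receptor, was at 197 ± 4.55 and 34.2 ± 0.776 CPM in vehicle promyelocytes and granulocytes and at 298 ± 24.9 and 226 ± 6.56 CPM with TNF-α. *DUSP2*, a phosphatase of MAP kinases, was at 15.3 ± 1.29 and 2.56 ± 0.424 CPM with vehicle and at 26.1 ± 2.49 and 33.1 ± 2.91 CPM with TNF-α. All 5 were low in vehicle granulocytes and rose there by 2.34 to 3.69 (log2), which follows from their choice by likeness over the same libraries. In promyelocytes they also rose, by 0.25 to 0.91, where *RAB7B* did not, and the increase of 0.25 in *EPOP* did not pass with the replicate number as a block, in 1 fit of all 12 libraries or without vehicle replicate 2, vehicle replicate 3 or TNF-α replicate 3. The pattern of *RAB20* was far from it, with a root mean square difference of 2.70, place 17019.

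On chromosome 1, *SLC26A9* and *CTSE*, which flank *RAB7B*, were near the floor, with group means of at most 0.254 and 0.535 CPM. The next gene, *RHEX*, a regulator of erythroid expansion at 206037231-206102459 on the plus strand, was at 46.0 ± 3.18 CPM in vehicle promyelocytes and 38.0 ± 1.07 CPM with TNF-α and fell (log2 -0.25, adjusted p = 0.0118 by edgeR). This call was lost without vehicle replicate 1 or vehicle replicate 2. In granulocytes *RHEX* had only 2 to 4 counts per library with vehicle and 9 to 13 with TNF-α, and rose (adjusted p = 0.00143 by edgeR) at 0.0925 ± 0.0365 and 0.442 ± 0.0308 CPM. With 1 granulocyte library left out, this call held in the 5 fits in which *RHEX* was tested. Farther on, *SRGAP2*, a regulator of RAC signaling, rose in granulocytes (log2 0.48, adjusted p = 3.36e-10 by edgeR) and did not pass in promyelocytes. *FAM72A*, which starts between *RHEX* and *SRGAP2*, went the other way and fell in granulocytes (log2 -0.27, adjusted p = 0.00721 by edgeR). It did not pass in promyelocytes, and the dependence of its granulocyte call on the processing is not given here.

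Of 53 other RAB genes, 36 were tested in each cell type. In promyelocytes 7 rose and 4 fell, and in granulocytes 13 rose and 9 fell, with median log2 fold changes of 0.04 and 0.05. Over all genes tested, 14.8% passed in promyelocytes and 49.2% in granulocytes. *RAB3A* and *RAB3D*, relatives of RAB27 in regulated secretion, fell in both cell types. *RAB3D* was at 17.9 ± 1.21 and 9.78 ± 0.602 CPM in promyelocytes and 107 ± 2.84 and 37.4 ± 0.585 CPM in granulocytes, with log2 fold changes of -0.85 and -1.53 (adjusted p = 1.31e-06 and 6.45e-24, edgeR). *RAB3A* changed by -1.31 and -1.27 (adjusted p = 7e-08 and 3.51e-12). *RAB8B*, which carries cargo to the plasma membrane, rose by 0.58 and 0.90 (adjusted p = 1.66e-06 and 9.07e-18, edgeR). *RAB30*, a Golgi RAB, rose in granulocytes (1.64, adjusted p = 2.16e-05), from 16 to 20 counts per library with vehicle to 31 to 60 with TNF-α. *RAB40B* fell in promyelocytes (-0.70, adjusted p = 0.0422), a call that was lost with DESeq2, the block or GC trends removed and without any 1 library other than TNF-α replicate 1.

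The partners of these RABs were taken from 8 hand-written lists with 114 genes. In promyelocytes 98 were tested, of which 14 rose and 11 fell. In granulocytes 99 were tested, of which 31 rose and 36 fell. Of all genes tested, 8.15% rose and 6.65% fell in promyelocytes and 24.4% rose and 24.8% fell in granulocytes, which is the background of all list counts given here. The median log2 fold change was -0.03 and -0.02.

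**Figure D4:**
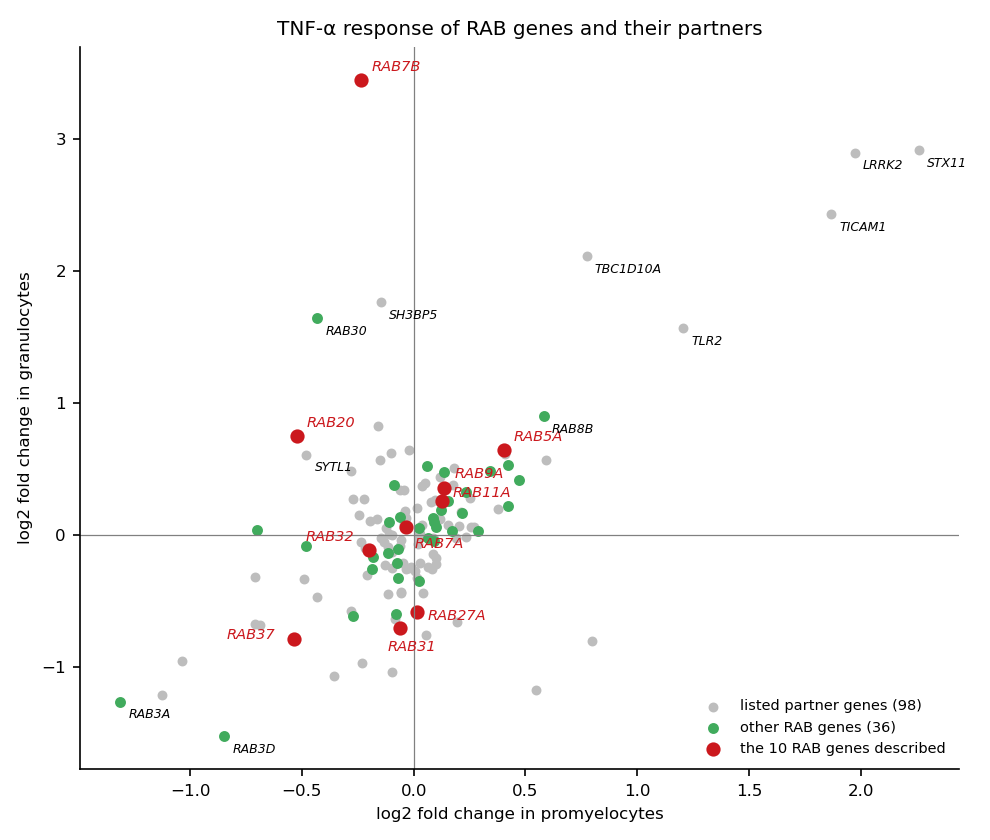
Log2 fold change with TNF-α in promyelocytes (horizontal axis) and granulocytes (vertical axis) for the 10 RAB genes described (red), 36 other RAB genes (green) and 98 listed partner genes tested in both cell types (grey). *RAB7B* is the highest point, left of 0 with -0.24 and 3.45, on the same side as *RAB30*, *RAB20* and *SYTL1*, while *STX11*, *LRRK2*, *TICAM1* and *TLR2* rose along both axes.

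Of 24 genes for the exchange factors, GAPs and effectors of RAB7, the retromer and the HOPS tethering complex, 1 rose and 2 fell in promyelocytes, and 8 rose and 11 fell in granulocytes. *FYCO1*, which links RAB7 vesicles to kinesin, passed in opposite directions as *RAB7B* did, with log2 fold changes of -0.22 and 0.27 (adjusted p = 0.0208 and 0.00204 by edgeR). Its promyelocyte call was lost without vehicle replicate 1, vehicle replicate 2 or TNF-α replicate 2, with the replicate block and with GC trends removed. *TBC1D2*, a RAB7 GAP, fell in both cell types (-0.71 and -0.32, adjusted p = 0.000415 and 0.00218, edgeR). In granulocytes its relative *TBC1D2B* rose (0.83, adjusted p = 1.02e-16), as did *RILP*, the effector that recruits dynein to lysosomes (0.64, adjusted p = 0.00577, edgeR), from 41 to 81 counts per library to 77 to 111. The *RILP* call was lost without granulocyte vehicle replicate 1. *OSBPL1A*, a lipid-sensing effector of RAB7, fell in granulocytes (-0.64, adjusted p = 1.1e-08), and so did *TBC1D15* (-0.44, adjusted p = 4.3e-07, edgeR). *CCZ1*, a subunit of the RAB7 exchange factor, rose in both (0.38 and 0.20, adjusted p = 0.000692 and 0.00709, edgeR), but its reads may be shared with the near-identical copy *CCZ1B*.

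Of 8 genes for prenylation and GDP dissociation inhibitors, which lend RABs their lipid anchor and extract them from membranes, 3 rose in promyelocytes and 1 in granulocytes, and with all libraries none was called decreased by edgeR. Without 1 promyelocyte library, 0 to 1 were called decreased there. *RABGGTB* (0.26, adjusted p = 0.00555, edgeR) and *CHM* (0.27, adjusted p = 0.0191) rose in promyelocytes, and the call of *CHM* was lost without vehicle replicate 2, vehicle replicate 3 or TNF-α replicate 2 and with GC trends removed.

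Among the RAB5 exchange factors, GAPs and effectors and the CORVET complex, 18 of 19 genes were tested, of which 1 rose and 2 fell in promyelocytes and 3 rose and 6 fell in granulocytes. *RIN1*, a RAB5 exchange factor, fell in both (-1.04 and -0.96, adjusted p = 0.000388 and 7.67e-07, edgeR). Its relative *RIN3* rose in granulocytes (0.56, adjusted p = 2.27e-11), where the endosomal adaptor *APPL2* (-0.66, adjusted p = 2.12e-08, edgeR) and the CORVET subunit *VPS8* (-0.45, adjusted p = 3.38e-09) fell. In promyelocytes the tether *EEA1* rose (0.23, adjusted p = 0.0363, edgeR), a call that was lost with the block, with GC trends removed and without vehicle replicate 1 or 2 or TNF-α replicate 1.

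All 10 tested genes of the RAB11 recycling machinery passed in granulocytes, 3 increased and 7 decreased, where 49.2% of all genes passed. With any 1 granulocyte library left out, 3 were increased and 5 to 7 decreased. In promyelocytes, where 14.8% of all genes passed, 3 were decreased. *SH3BP5*, a RAB11 exchange factor, rose in granulocytes from 4.19 ± 0.135 to 14.3 ± 1.48 CPM (1.76, adjusted p = 5.64e-16, edgeR), while its relative *SH3BP5L* fell in both (-0.28 and -0.58, adjusted p = 0.0179 and 9.09e-10). The promyelocyte call of *SH3BP5L* was lost without vehicle replicate 2, TNF-α replicate 1 or TNF-α replicate 2. The RAB11 effectors *RAB11FIP1* (-0.71 and -0.68, adjusted p = 2.6e-08 and 1.45e-14, edgeR) and *RAB11FIP4* (-1.12 and -1.22, adjusted p = 0.00437 and 1.14e-15) fell in both cell types. *RAB11FIP5* fell in granulocytes (-0.97, adjusted p = 0.0256) on 8 to 44 counts per library, a call lost with DESeq2, in 1 fit of all 12 libraries and without vehicle replicate 3 or TNF-α replicate 2 or 3.

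Of 16 listed genes for RAB27 effectors and granule exocytosis, 11 were tested, of which 2 rose and 2 fell in promyelocytes and 6 rose and 3 fell in granulocytes. *SYTL1*, a synaptotagmin-like effector of RAB27A, passed in opposite directions, from 34.4 ± 1.98 to 24.3 ± 2.14 CPM in promyelocytes and from 14.4 ± 0.0437 to 22.1 ± 1.496 CPM in granulocytes (-0.48 and 0.61, adjusted p = 0.000192 and 3.79e-08, edgeR). *STX11*, a SNARE protein of granule release, rose in both (2.26 and 2.91, adjusted p = 3.18e-12 and 3.32e-26), as did *TBC1D10A*, a GAP of RAB27A (0.77 and 2.11, adjusted p = 0.000306 and 3.46e-21, edgeR). Its relative *TBC1D10C* fell in both (-0.49 and -0.33, adjusted p = 0.0298 and 0.000341, edgeR), with a promyelocyte call that was lost without vehicle replicate 1 or 3 or TNF-α replicate 1 or 2. *SYTL3* fell in granulocytes (-1.04, adjusted p = 0.0134) on 6 to 38 counts per library and was not called by DESeq2 or without TNF-α replicate 3.

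Among 10 partners of RAB32 and its relative RAB38, 2 rose in promyelocytes, and 3 rose and 2 fell in granulocytes. *LRRK2*, the kinase that phosphorylates RABs and binds RAB32, rose from 0.682 ± 0.104 to 2.65 ± 0.382 CPM in promyelocytes and from 6.03 ± 0.270 to 45.3 ± 4.91 CPM in granulocytes (1.97 and 2.89, adjusted p = 9.26e-06 and 3.24e-26, edgeR). *ANKRD27*, also called VARP, rose in both (0.18 and 0.50, adjusted p = 0.0296 and 1.88e-10, edgeR), and its promyelocyte call was lost with the block and without any 1 library other than TNF-α replicate 1. In granulocytes *SGSM2* rose (0.38, adjusted p = 2.81e-06) and *VIPAS39* fell (-0.24, adjusted p = 0.0145, edgeR), the latter not called by DESeq2 or without vehicle replicate 1 or 3.

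Of 9 RAB9 partners, 7 were tested, of which 2 rose in promyelocytes, and 2 rose and 2 fell in granulocytes. *RABEPK*, an effector of RAB9, rose in granulocytes (0.62, adjusted p = 3.84e-08), where *DENND2D* (-0.80, adjusted p = 0.000299, edgeR) and the Golgi tether *GCC2* (-0.22, adjusted p = 0.000556) fell. *RHOBTB3* rose in both cell types (0.21 and 0.17, adjusted p = 0.0308 and 0.0129, edgeR) and *M6PR*, a mannose 6-phosphate receptor, in promyelocytes (0.20, adjusted p = 0.0156). In promyelocytes both calls were lost with the replicate block, that of *RHOBTB3* also without any 1 library other than TNF-α replicate 2, and that of *M6PR* without vehicle replicate 2 or 3 or TNF-α replicate 2. In granulocytes the call of *RHOBTB3* was lost without vehicle replicate 1.

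Toll-like receptors, which RAB7B is known to route to degradation, and their adaptors made up the last list, of which 10 of 17 genes were tested in promyelocytes and 11 in granulocytes. In promyelocytes 3 rose and 2 fell, and in granulocytes 5 rose and 5 fell. *TICAM1*, an adaptor of TLR signaling, rose from 1.36 ± 0.413 to 4.87 ± 0.603 CPM and from 7.10 ± 1.63 to 38.9 ± 3.91 CPM (1.87 and 2.43, adjusted p = 1.71e-06 and 4.78e-22, edgeR). *TLR2* (1.20 and 1.56, adjusted p = 1.84e-10 and 1.05e-20, edgeR) and *MYD88* (0.59 and 0.57, adjusted p = 9.5e-05 and 5.03e-11) also rose in both, and *TLR1* fell in both (-0.69 and -0.69, adjusted p = 0.0378 and 7.12e-08), although its promyelocyte call was lost with DESeq2, with the block and without vehicle replicate 2 or 3 or TNF-α replicate 2 or 3. *TLR8* and *LY96* fell in granulocytes (-1.18 and -1.07, adjusted p = 0.0166 and 0.0289, edgeR), on 7 to 25 and 6 to 30 counts per library, and neither was called by DESeq2, in 1 fit of all 12 libraries or without TNF-α replicate 2 or 3. The call of *TLR8* was also lost without vehicle replicate 2, and that of *LY96* without vehicle replicate 3, with the block and with GC trends removed.

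The receptors tied to RAB7B in macrophages are TLR4 and TLR9, which were picked out here after their values had been seen. *TLR4* was at 94.6 ± 2.17 CPM in vehicle granulocytes and 56.4 ± 0.620 CPM with TNF-α and fell (-0.76, adjusted p = 3.6e-15, edgeR), the direction opposite to that of *RAB7B* in the same libraries. Both are RNA levels and not protein, and a link between the 2 changes was not tested. In promyelocytes *TLR4* was at 40.9 ± 2.89 and 41.8 ± 0.915 CPM and did not pass (0.05, adjusted p = 0.655, edgeR). *TLR9* had at most 4 counts in any library and was not tested.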

How the data were processed

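RNA of HL-60/S4 cells was depleted of ribosomal RNA and sequenced in 12 libraries, 3 per group, assigned from their titles. The authors aligned reads to hg38 with STAR 2.5.3a and counted them on GENCODE v27 genes with featureCounts 1.5.2, by reverse strand, primary alignment and complete, non-chimeric pair, and they deposited raw counts without normalization. Submitters' notes also list FastQC 0.11.4 and DESeq2 1.16.1. No table of the authors' own comparisons was used. Symbols were found for 57532 of 58288 identifiers.

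Promyelocytes and granulocytes were fitted separately (edgeR 4.0.16, R 4.3.3) by TMM scaling, filterByExpr (minimum count 10, minimum total 15), the quasi-likelihood test and Benjamini-Hochberg adjustment over all genes tested (16250 in promyelocytes, 16944 in granulocytes), with a threshold of 0.05. The biological coefficient of variation was 0.0673 and 0.0487. Differences between responses were tested as an interaction over all 12 libraries (18124 genes). Standard errors were derived from the fold change and the F statistic, with a prior count of 0.125 for fold changes. CPM were computed on TMM library sizes. P-values measure the spread between flasks of 1 seed lot. The procedure was also run on simulated counts, drawn independently at a dispersion common to all genes. These held no dependence between flasks and, for the interaction, no difference between vehicle cell types, so the run cannot speak to either.

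The RAB genes and the lists were chosen with earlier results of these data known. Named genes were the 10 RAB genes, the 5 genes most like *RAB7B*, list genes that passed in opposite directions or had the largest changes (up to 4 per list and cell type), genes overlapping the exons of the 10, and neighbours of *RAB7B*. Results of 2 list genes that this rule names are not reported here. Alternatives were DESeq2 size factors, no filter, DESeq2 1.42.0, a replicate block, 1 fit of all 12 libraries, removal of GC and length trends, and leaving out each library. Promoter sequences were from RefSeq (GRCh38.p14).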

Additional observations from a re-analysis of the deposited data

Results flagged for a closer look

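Responses to TNF-α that differed between granulocytes and promyelocytes by the edgeR interaction test are given here for the named genes, as granulocytes minus promyelocytes in log2. Of the 10 RAB genes chosen from these responses, the difference was 3.72 for *RAB7B*, 1.31 for *RAB20*, 0.28 for *RAB5A*, -0.56 for *RAB27A* and -0.61 for *RAB31*, given as a description. Of 36 other RAB genes tested, 7 passed (5 larger and 2 smaller in granulocytes), and of 100 partner genes 36 passed (23 and 13). Over all genes tested, 24.0% passed (14.1% larger and 9.88% smaller). Of these other RAB and partner genes, those named in the text follow. Among other RAB genes it was 2.11 for *RAB30*, 0.35 for *RAB8B* and -0.64 for *RAB3D*. For partners of RAB7 it was 1.03 for *TBC1D2B*, 0.53 for *FYCO1*, 0.43 for *TBC1D2*, -0.44 for *TBC1D15* and -0.52 for *OSBPL1A*. For partners of RAB5 it was 0.75 for *RIN3*, -0.29 for *VPS8* and -0.82 for *APPL2*, and for the RAB11 exchange factor *SH3BP5* it was 1.94. For partners of RAB27 it was 1.37 for *TBC1D10A*, 1.12 for *SYTL1* and 0.69 for *STX11*, and for those of RAB32 it was 0.96 for *LRRK2* and 0.36 for *ANKRD27*. For RAB9 partners it was 0.76 for *RABEPK*, -0.29 for *GCC2* and -1.56 for *DENND2D*, and for Toll-like receptors 0.40 for *TLR2* and -0.78 for *TLR4*. The *RAB7B* neighbours *RHEX* and *SRGAP2* differed by 2.48 and 0.56, the former on 2 to 13 counts in granulocytes. The genes most like *RAB7B* in pattern differed by 2.12 for *CD44*, 2.78 for *MFSD2A*, 2.04 for *TRIP10*, 2.93 for *DUSP2* and 2.12 for *EPOP*. These 5 were chosen by likeness to *RAB7B* over the same libraries, so their differences are a description too. The calls of *TBC1D2*, *GCC2*, *TBC1D15* and *VPS8* were lost when GC and length trends were removed, and those of *TBC1D2* and *GCC2* also with the replicate block. The call of *GCC2* was lost without promyelocyte vehicle replicate 1 or TNF-α replicate 1 as well, and that of *TBC1D2* with DESeq2, without the filter, and without promyelocyte TNF-α replicate 2, granulocyte vehicle replicate 1 or granulocyte TNF-α replicate 1 or 3. That of *RAB5A* was lost without the filter and without granulocyte vehicle replicate 3.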

How the results depend on the processing

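*RAB7B* in granulocytes and its difference between the cell types kept direction and call in every alternative run. No pairing by replicate number was seen, with residuals of same-numbered libraries correlated at -0.132 to -0.0351 in promyelocytes and -0.0589 to -0.0158 in granulocytes. Differently numbered libraries correlated at -0.0921 to 0.138 and -0.00836 to 0.0652, respectively. Residuals were centred on only 3 libraries per group, so this check cannot exclude a pairing. With the replicate number as a block, *RAB7B* in promyelocytes (-0.23) no longer passed and 3 rather than 5 of the 10 RAB genes passed there. Leaving out 1 library gave -0.29 to -0.16 for *RAB7B* and 3 to 4 RAB genes passed in promyelocytes, 4 to 5 RAB genes with different responses, 6 to 11 other RAB genes passed in promyelocytes, and 9 to 13 increased and 7 to 13 decreased partner genes there. The lowest promyelocyte counts were all reached without promyelocyte vehicle replicate 2, and the lowest count of different responses without granulocyte vehicle replicate 3. Removing GC and length trends raised the RAB genes with different responses from 5 to 8, adding *RAB7A* (0.22), *RAB11A* (0.35) and *RAB9A* (0.48), and added *RAB7A* in granulocytes (0.13). The share of all genes passing in each alternative is not given, so nothing is read from these counts. The change of *RAB27A* in promyelocytes turned to -0.00865 in 1 fit of all libraries and -0.0206 without GC trends, and passed in none of these. Of the calls of named genes outside the 10, other than *FAM72A*, 21 of 34 in promyelocytes, 41 of 48 in granulocytes and 25 of 29 differences held in every alternative in which the gene was tested. *RHEX* in granulocytes, counted among the 41, was not tested in every fit that left out 1 library. The cause of these changes was not tested. The number of libraries, 3 per group, sets the precision, and list genes under 1 CPM rest on few counts.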
